A study of Homo sapiens with 9 samples.

Results

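The genes described here are 9 members of the NRF2 antioxidant system, taken by name from a gene list: NFE2L2, which encodes NRF2 itself, its inhibitor KEAP1, and the target genes GCLC, GCLM, SLC7A11, TXNRD1, SRXN1, NQO1 and HMOX1. They are 9 of the 60708 genes in the count tables, and the rule that picks them goes by name alone, although the list was drawn up with earlier results of these data known. All libraries were labelled as untreated MDA-MB-231, an established human triple-negative breast cancer line with basal and mesenchymal features, grown in DMEM with fetal bovine serum. The 3 WT libraries were labelled as the line without an edit. The 3 CS16 and the 3 CS19 libraries were labelled as clones with the genotype SNAI1-KO. By the study's account SNAI1, a transcription factor of the epithelial-mesenchymal transition, was targeted in them with CRISPR/Cas9. A pool of guide plasmids and repair plasmids was used under puromycin selection. Each of CS16 and CS19 is labelled as 1 clone, so the labelled edit cannot be told apart from anything else that differs between a clone and WT. Such differences include CDKN2A, CDKN2B and MTAP, which had 0 counts in WT but were present in the clones, as given below. Whether all libraries share 1 origin was not tested. The labels number the libraries of a group without saying that they came from separate cultures, so the p-values measure the spread between these libraries, which may be technical.

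NRF2 is a transcription factor of the cap'n'collar family that drives genes against oxidants and electrophiles. In unstressed cells KEAP1 binds NRF2 and presents it to a CUL3 ubiquitin ligase for degradation. Electrophiles modify cysteines of KEAP1, NRF2 accumulates, pairs with a small MAF protein (MAFF, MAFG or MAFK) and binds antioxidant response elements. Its targets make glutathione, reduce thioredoxin, detoxify quinones and break down heme, and NRF2 is often active in tumours. NRF2 is controlled mostly as a protein, which RNA counts do not measure.

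The proximal promoters of the members were searched for the core letters of the antioxidant response element, TGACNNNGC, on both strands. RefSeq promoters of GRCh38.p14, each running from 250 bases before to 50 bases after a start site, were found for 7 members with 10 start sites. A match was present in 4 of these 10 promoters, belonging to 3 of the 7 members, against 13.3% of all 35116 promoters and 16.1% of all 27305 genes in the table. The 4 promoters with a match are shown because they hold the response element's letters, and that of NQO1 because NQO1 had the largest expression difference of the 9 genes. All are written 5′ to 3′ along the gene, and capitals mark each match. GCLM (chr1:93909381-93909680, minus strand) held 1 match, KEAP1 (chr19:10502722-10503021, minus strand) held 2, the upstream start of TXNRD1 (chr12:104215529-104215828, plus strand) held 2, and its downstream start (chr12:104286782-104287081, plus strand) held 1. NQO1 (chr16:69726511-69726810, minus strand) held none in this window.
GCLM: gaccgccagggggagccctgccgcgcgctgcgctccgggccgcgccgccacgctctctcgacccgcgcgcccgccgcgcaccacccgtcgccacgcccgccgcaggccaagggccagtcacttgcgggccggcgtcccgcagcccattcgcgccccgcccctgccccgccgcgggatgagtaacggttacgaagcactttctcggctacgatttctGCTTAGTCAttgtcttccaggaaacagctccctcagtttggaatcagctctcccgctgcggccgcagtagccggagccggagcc
KEAP1: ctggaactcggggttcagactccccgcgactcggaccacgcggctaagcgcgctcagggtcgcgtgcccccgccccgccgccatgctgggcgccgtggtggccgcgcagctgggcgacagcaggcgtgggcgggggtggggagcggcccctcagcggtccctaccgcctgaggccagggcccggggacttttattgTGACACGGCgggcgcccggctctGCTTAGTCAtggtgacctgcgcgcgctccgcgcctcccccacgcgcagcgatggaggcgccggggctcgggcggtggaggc
TXNRD1 upstream start: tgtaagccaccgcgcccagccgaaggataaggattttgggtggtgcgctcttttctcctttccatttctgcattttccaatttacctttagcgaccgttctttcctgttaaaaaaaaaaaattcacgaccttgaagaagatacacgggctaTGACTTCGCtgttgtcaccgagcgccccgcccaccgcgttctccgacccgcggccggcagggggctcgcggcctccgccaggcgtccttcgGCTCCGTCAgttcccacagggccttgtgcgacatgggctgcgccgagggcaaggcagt
TXNRD1 downstream start: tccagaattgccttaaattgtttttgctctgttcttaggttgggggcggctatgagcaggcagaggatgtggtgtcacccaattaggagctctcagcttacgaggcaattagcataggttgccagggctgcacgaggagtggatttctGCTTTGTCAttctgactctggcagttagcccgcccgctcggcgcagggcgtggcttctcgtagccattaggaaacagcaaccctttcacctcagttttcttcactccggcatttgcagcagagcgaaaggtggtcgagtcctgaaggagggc
NQO1: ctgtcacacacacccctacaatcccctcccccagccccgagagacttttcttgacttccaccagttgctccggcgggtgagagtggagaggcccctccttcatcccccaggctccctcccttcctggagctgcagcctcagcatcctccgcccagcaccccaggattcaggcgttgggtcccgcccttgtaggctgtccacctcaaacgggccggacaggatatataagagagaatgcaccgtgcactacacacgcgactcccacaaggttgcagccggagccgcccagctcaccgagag
The match in GCLM and the nearer match in KEAP1 were the same 9 letters, GCTTAGTCA, beginning 34 and 31 bases before the start site. The other KEAP1 match, TGACACGGC, began 54 bases before it. In TXNRD1 the matches began 99 and 8 bases before the upstream start and 102 bases before the downstream start. A second KEAP1 start site, both NFE2L2 start sites and the single start sites of GCLC and SRXN1 held no match. A match says only that the letters are present, and no match says only that they are absent from this window.

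The libraries held 19527195 to 28627777 counts each, and 41910 genes had a count in at least 1 library. A count of 0 allowed a level of up to 3 counts, which was 0.0984 to 0.172 CPM (the count scaled to the TMM-normalized library size). Counts over the whole targeted gene were not lower in the clones. SNAI1 had 16 to 38 counts in the WT libraries, 26 to 49 in CS16 and 57 to 94 in CS19. By the edgeR quasi-likelihood test it was higher than in WT by 1.32 on the log2 scale in CS19 (adjusted p = 0.031). CS16 did not pass (0.39, adjusted p = 0.47). Such counts cannot show whether the transcripts are edited. The study reports SNAI1 deletions in its RNA reads, lower SNAI1 RNA by RT-qPCR and no detectable SNAI1 protein in both clones. Markers separated the groups. The 10 basal and mesenchymal markers summed to 6923 to 7695 CPM in WT and 364 to 444 CPM in the clones, where CD44 was at or under 3 counts in every library. CDKN2A, CDKN2B and MTAP, the 9p21 genes known to be lost in MDA-MB-231, had 0 counts in the 3 WT libraries and summed to 164 to 182 CPM in the 6 others. The 9 embryonic kidney markers summed to 59.3 to 82.7 CPM in WT and 257 to 381 CPM in the clones, with LIN28B, PAX2, SALL1 and LHX1 at or under 3 counts in all WT libraries and PAX8 in all clone libraries. The 7 mammary luminal markers summed to 1450 to 2131 CPM in WT and 70.3 to 118.2 CPM in the clones. KRT19 was at or under 3 counts in all clone libraries, whereas FOXA1, with 0 to 2 counts per WT library and 63 to 494 per clone library, went against the sum. The hormone receptors ESR1 and PGR and the growth factor receptor ERBB2 summed to 73.3 to 197 CPM over all libraries. Nearly all of this was ERBB2, with means of 123 CPM in WT, 79.3 in CS16 and 92.1 in CS19. ESR1 had means of 0.421, 0.134 and 0.162 CPM, and PGR was at or under 3 counts in each library. The prostate (28.5 to 39.2 CPM) and haematopoietic (2.35 to 7.09 CPM) lists stayed low throughout, and the fibroblast list summed to 58.5 to 128 CPM in WT, 63.9 to 68.0 in CS16 and 12.7 to 15.6 in CS19. The part of these marker differences in the results below was not tested, and CS16 and CS19 are called here the libraries labelled SNAI1-KO. Among the WT libraries, WT-2 stood apart: a chi-square test of counts over genes, divided by its degrees of freedom, gave 188 for WT-1 with WT-2 and 230 for WT-2 with WT-3, but 14.6 for WT-1 with WT-3. Values of members and of named list genes that moved by over 1.5 times in fold, or gained or lost a call, without WT-2 are therefore also given without it.

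Of the 9 genes, 8 passed the filter on low counts and were tested. In the 6 libraries labelled SNAI1-KO, NQO1, TXNRD1, NFE2L2, KEAP1 and GCLM were lower than in WT, GCLC and HMOX1 were higher, and SLC7A11 did not pass the test. The 2 higher genes compare with 31.1% of all 19631 genes tested, and the 5 lower genes with 32.6%. The median log2 fold change of the 8 genes was -0.83, against 0.00 for all genes tested. Only NQO1 met the study's cut-off of a log2 fold change of at least 2, which 26.9% of all genes met. For 6 of the 8 genes, all but GCLM and SLC7A11, the CPM values of the 6 libraries and of the WT libraries did not overlap, as for 58.3% of all genes tested. The members' share was above the background for lower genes and below it for higher genes and for the cut-off, and these differences were not tested. In bulk RNA, fewer cells of a type and less RNA per cell cannot be told apart.

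**Figure D1:**
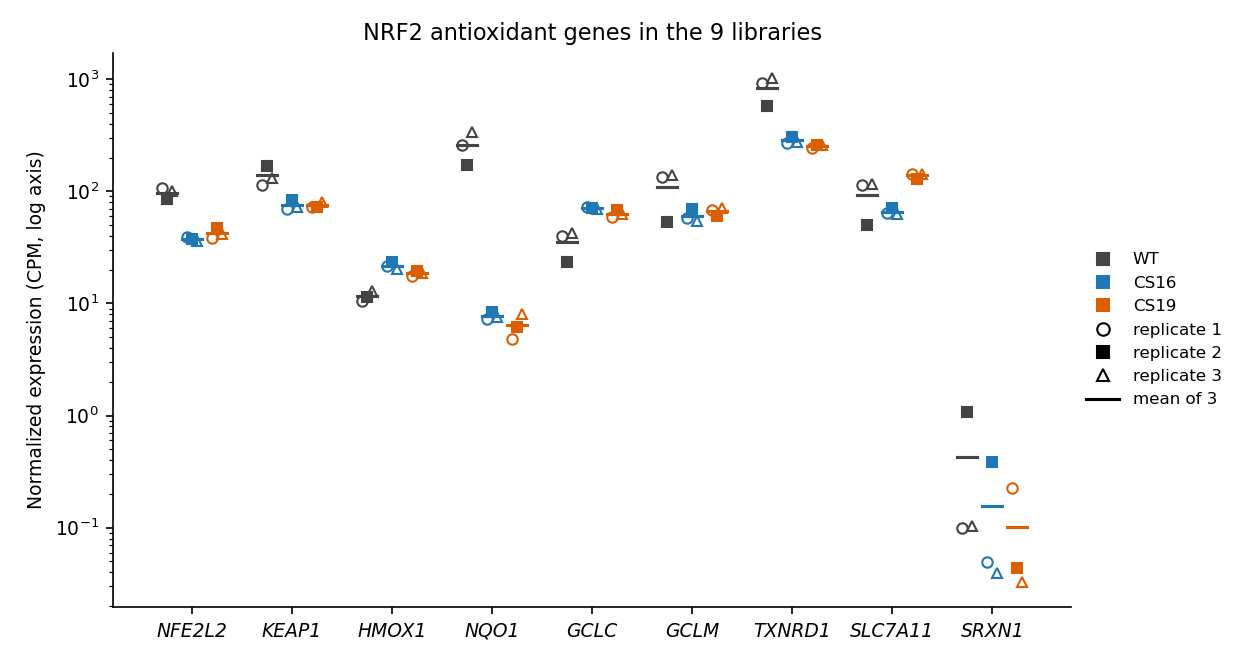
Normalized expression (CPM, log axis) of the 9 NRF2 antioxidant genes in each library, coloured by group, with the marker shape giving the replicate and the bar the mean of 3. NQO1 sits between 172 and 337 CPM in WT and between 4.83 and 8.46 CPM in the other 6 libraries. The filled WT square (WT-2) lies below the other WT points for GCLM, SLC7A11, NQO1, TXNRD1, GCLC and NFE2L2.

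The regulator NFE2L2 (chromosome 2, 177227595 to 177392697) was lower in both clones. WT-1, WT-2 and WT-3 had 106, 85.8 and 101 CPM, CS16 had 38.9, 37.9 and 35.98 CPM, and CS19 had 38.4, 47.4 and 42.0 CPM. Every WT library was above every clone library, and both clones lay close together. NFE2L2 fell by 1.34 on the log2 scale in CS16 (SE 0.17, adjusted p = 0.00042) and by 1.16 in CS19 (SE 0.18, adjusted p = 0.0013), in edgeR quasi-likelihood fits that share the WT libraries. In the NFE2L2 gene model 21.9% of exonic bases also lay in other annotated genes.

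KEAP1 (chromosome 19, 10486125 to 10503558), the adaptor that holds NRF2 low, moved in the same direction as NFE2L2. Its level was 114.03, 170 and 133 CPM in WT-1, WT-2 and WT-3, 69.3, 83.9 and 72.8 CPM in CS16, and 73.1, 72.6 and 80.0 CPM in CS19. The groups did not overlap, WT-2 was the highest library, and the clones had nearly equal means of 75.4 ± 7.62 and 75.2 ± 4.14 CPM (SD, n = 3 each). KEAP1 fell by 0.85 on the log2 scale in CS16 (adjusted p = 0.0090) and by 0.84 in CS19 (adjusted p = 0.0089). These calls were lost without CS16-1 (adjusted p = 0.0501), and without CS19-1 or CS19-2 (0.0543 and 0.0515), with log2 fold changes of -0.78, -0.79 and -0.79. In TPM, a level per exon length scaled to the library, the ratio of NFE2L2 to KEAP1 was 0.319 to 0.586 in the WT libraries, 0.284 to 0.354 in CS16 and 0.331 to 0.411 in CS19, ranges that overlapped.

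Glutathione is built from cysteine, glutamate and glycine, and 3 members act in its supply: GCLC and GCLM form the enzyme of its rate-limiting step, and SLC7A11 is the cystine importer. The catalytic subunit GCLC (chromosome 6, 53497341 to 53616970) was 39.7, 23.6 and 42.1 CPM in WT-1, WT-2 and WT-3, 73.0, 70.5 and 69.5 CPM in CS16, and 59.1, 68.1 and 62.3 CPM in CS19. All clone libraries were above all WT libraries. GCLC rose by 1.05 on the log2 scale in CS16 (SE 0.24, adjusted p = 0.0079) and by 0.89 in CS19 (SE 0.25, adjusted p = 0.018). The CS19 call was lost without CS19-2 (log2 fold change 0.85, adjusted p = 0.067) and without CS19-3 (0.93, adjusted p = 0.055).

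The modifier subunit GCLM (chromosome 1, 93885199 to 93909456) went the other way. It was 134, 52.8 and 139 CPM in WT-1, WT-2 and WT-3, 57.7, 68.8 and 54.8 CPM in CS16, and 67.5, 60.1 and 71.5 CPM in CS19. WT-2 fell below every clone library, while WT-1 and WT-3 were above all of them. With all libraries GCLM fell by 0.78 on the log2 scale in the 6 libraries (adjusted p = 0.017), a call lost without WT-1 (-0.60, adjusted p = 0.092) and without WT-3 (-0.54, adjusted p = 0.11), and neither clone alone passed (CS16 log2 fold change -0.81, adjusted p = 0.087, CS19 log2 fold change -0.67, adjusted p = 0.15). Without WT-2, GCLM was lower by a log2 fold change of -1.18 in CS16 (adjusted p = 8.5e-08) and of -1.02 in CS19 (adjusted p = 2.8e-08).

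The ratio of the catalytic to the modifier subunit therefore differed between the groups. Per exon length, the TPM ratio of GCLC to GCLM was 0.187 to 0.282 in the 3 WT libraries, WT-2 included, 0.645 to 0.799 in CS16 and 0.549 to 0.714 in CS19. Its mean was 0.220 ± 0.0538 in WT, 0.747 ± 0.0883 in CS16 and 0.604 ± 0.0947 in CS19 (SD, n = 3 each). No clone library reached into the WT range, and the ranges of the clones overlapped. The ratios of members given here were chosen after their values were seen and were not tested.

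SLC7A11 (chromosome 4, 138164097 to 138242349) was the member that set the clones apart. WT-1, WT-2 and WT-3 had 112.8, 50.2 and 117.1 CPM, CS16 had 63.5, 71.1 and 62.9 CPM, and CS19 had 144, 129 and 143 CPM. CS19 was above every other library, and CS16 lay between WT-2 and the other WT libraries. CS16 was lower than CS19 by a log2 fold change of -1.08 (95% interval -1.24 to -0.92, adjusted p = 3.8e-07). In a fit of all 3 groups, in which the spread of the WT libraries enters, the same difference was -1.07 with an adjusted p of 0.072. Against WT, SLC7A11 had a log2 fold change of -0.47 in CS16 (adjusted p = 0.24) and 0.61 in CS19 (adjusted p = 0.14). Without WT-2 the clones passed in opposite directions, at -0.81 in CS16 (adjusted p = 1.7e-06) and 0.29 in CS19 (adjusted p = 0.012).

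**Figure D2:**
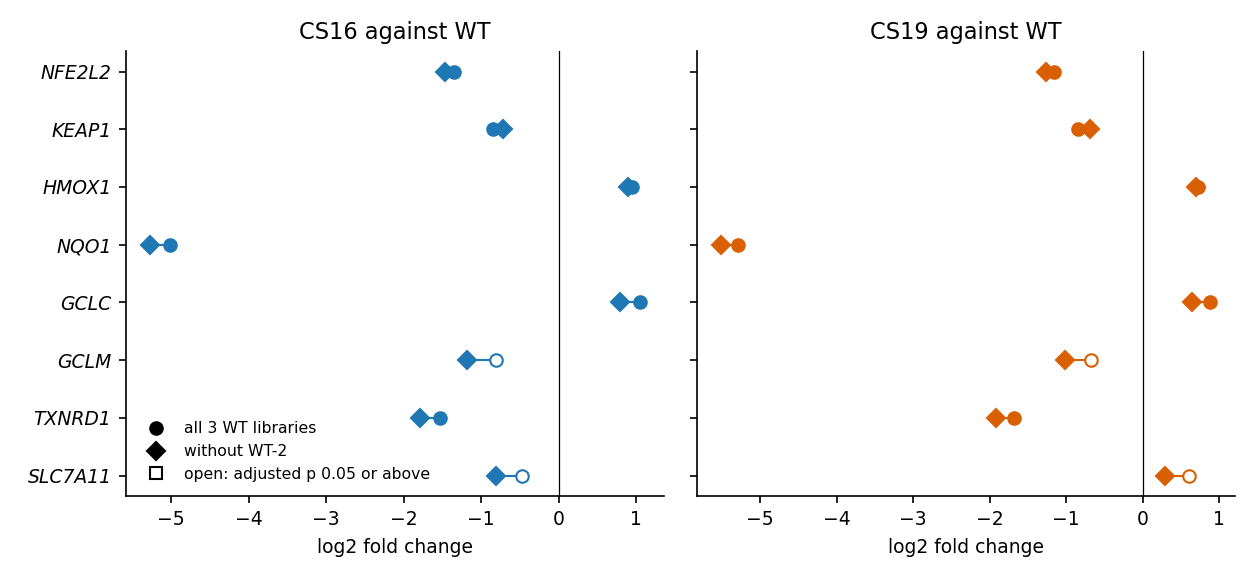
Log2 fold change of each tested member against WT in CS16 (left) and CS19 (right), with all 3 WT libraries (circles) and without WT-2 (diamonds), where open symbols have an adjusted p of 0.05 or above. All 8 genes keep their direction within each clone, and GCLM and SLC7A11 pass the test in both clones when WT-2 is left out.

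Thioredoxin reductase 1, encoded by TXNRD1 (chromosome 12, 104215779 to 104350307), passes electrons from NADPH to thioredoxin. It had the highest mean level per length of the members in every group and was lower in the clones. It was 930, 571 and 1024 CPM in WT-1, WT-2 and WT-3, 272, 304 and 276 CPM in CS16, and 244, 259 and 261 CPM in CS19. The lowest WT library, WT-2, was still above the highest clone library. TXNRD1 fell by 1.53 on the log2 scale in CS16 (SE 0.24, adjusted p = 0.0014) and by 1.68 in CS19 (SE 0.25, adjusted p = 0.00092).

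SRXN1 (chromosome 20, 646615 to 653200), sulfiredoxin, which repairs over-oxidized peroxiredoxins, could not be assessed. It had 2, 19 and 2 counts in WT-1, WT-2 and WT-3, 1, 8 and 1 in CS16, and 5, 1 and 1 in CS19, and it was removed by the filter on low counts. In the files' gene models 90.7% of its exonic bases, 2292 of 2528, were shared with ENSG00000270299 on the same strand. Read pairs lying on both genes are left uncounted by the counter's default, and ENSG00000270299 itself had 0 to 8 counts. The low counts therefore say little about SRXN1 expression.

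NQO1 (chromosome 16, 69706996 to 69726668), the quinone reductase most often read as an NRF2 target, had the largest difference of the members. It was 260, 172 and 337 CPM in WT-1, WT-2 and WT-3, 7.22, 8.46 and 7.61 CPM in CS16, and 4.83, 6.12 and 8.13 CPM in CS19. The clones still had 106 to 248 counts per library, well above the floor of 3. NQO1 fell by 5.01 on the log2 scale in CS16 (95% interval -5.71 to -4.31, adjusted p = 1.4e-05) and by 5.28 in CS19 (95% interval -6.11 to -4.46, adjusted p = 2.0e-05). It was the only member to meet the cut-off of 2, in CS16, where 27.1% of genes did, and in CS19, where 26.4% did.

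HMOX1 (chromosome 22, 35380361 to 35394214), heme oxygenase 1, which degrades heme and is held down by BACH1 as well as driven by NRF2, was higher in the clones. It was 10.4, 11.3 and 12.9 CPM in WT-1, WT-2 and WT-3, 21.4, 23.6 and 20.2 CPM in CS16, and 17.7, 19.46 and 18.7 CPM in CS19. The WT libraries were tight and lay below all clone libraries. HMOX1 rose by 0.94 on the log2 scale in CS16 (SE 0.18, adjusted p = 0.0036) and by 0.73 in CS19 (SE 0.18, adjusted p = 0.011), and the latter call was lost without CS19-3 (0.76, adjusted p = 0.054). The TPM ratio of NQO1 to HMOX1 was 11.8 to 20.3 in WT, 0.262 to 0.292 in CS16 and 0.212 to 0.337 in CS19, so the order of these 2 genes was opposite in WT and in the clones.

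**Figure D3:**
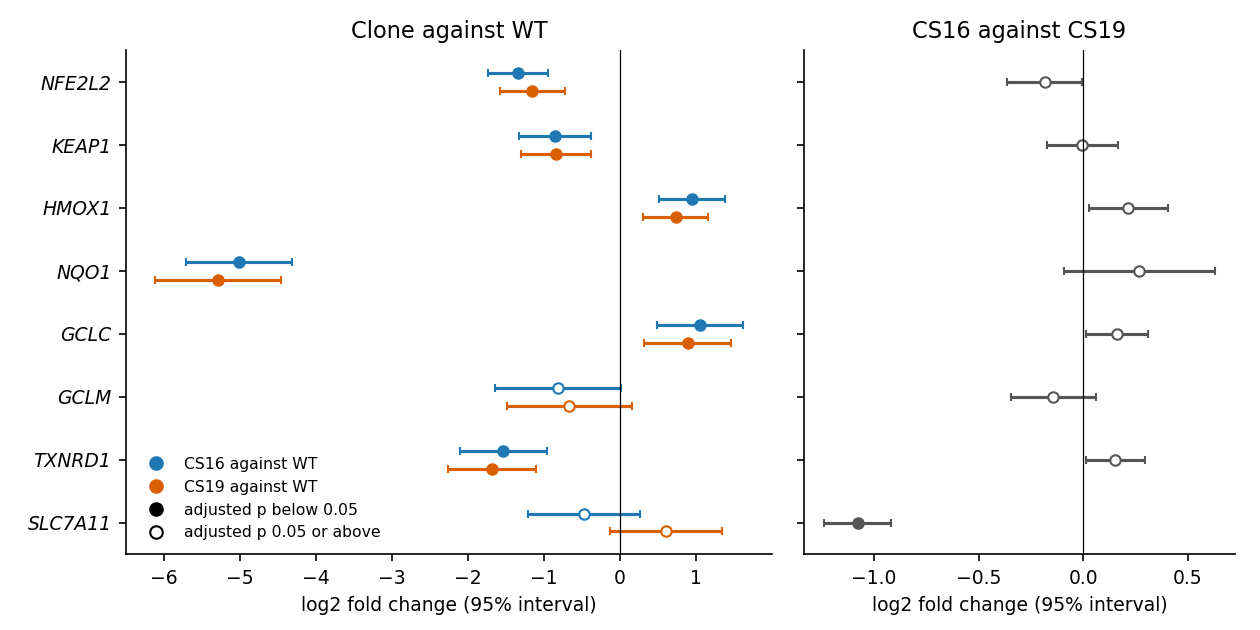
Log2 fold changes with 95% intervals of the 8 tested members, for each clone against WT (left) and for CS16 against CS19 (right), where filled points have an adjusted p below 0.05. NQO1 lies near -5 in both clones, GCLC and HMOX1 lie above 0, and SLC7A11, at -1.08, is the filled point between the clones.

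Counted per clone, 2 members were higher and 4 lower in CS16, where 27.0% of 18611 genes tested were higher and 28.6% lower. In CS19 the counts were also 2 and 4, against 26.3% and 26.6% of 18935 genes. The median log2 fold change of the members was -0.83 in CS16 and -0.76 in CS19, against -0.03 and 0.00 over all genes. Without WT-2, 2 members were higher and 6 lower in CS16, where 14098 of 19391 genes tested passed in either direction. In CS19 without WT-2, 3 members were higher and 5 lower, where 14076 of 19768 genes tested passed. Both comparisons use the same WT libraries, so the members' values in the clones are not independent of each other.

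Between the clones, 0 of the 8 members met the cut-off of a log2 fold change of at least 2 with an adjusted p below 0.05, by edgeR and by DESeq2 alike, where 1.13% of 17538 genes did. At an adjusted p below 0.05 alone, 0 members were higher in CS16, against 14.7% of all genes, and 1, SLC7A11, was lower, against 12.7%. At an unadjusted p below 0.05 there were 5 members. The share of all genes at that level was not computed, so this count cannot be called high or low. The CPM values of the clones did not overlap for 4 members (SLC7A11, GCLC, TXNRD1 and HMOX1), as for 40.5% of all genes. The other 7 intervals were narrow. They ran from -0.18 to 0.17 for KEAP1, -0.37 to 0.00 for NFE2L2, 0.01 to 0.31 for GCLC, 0.01 to 0.30 for TXNRD1, 0.03 to 0.41 for HMOX1 and -0.35 to 0.06 for GCLM, all on the log2 scale. NQO1, the least abundant tested member in the clones, had the widest, from -0.09 to 0.63.

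The order of the members' levels per exon length changed between WT and the clones. In WT, TXNRD1 (397 ± 95.5 TPM, SD, n = 3) and NQO1 (271 ± 63.1 TPM) were highest and their ranges overlapped. KEAP1 (125 TPM) followed, then GCLM (63.1 TPM) and NFE2L2 (55.1 TPM), which overlapped, SLC7A11 (30.6 TPM), and last HMOX1 (16.0 TPM) and GCLC (12.9 TPM), which overlapped. In CS16, TXNRD1 (131 ± 10.2 TPM) and KEAP1 (65.2 ± 2.77 TPM) stood clear. GCLM (34.4 TPM), HMOX1 (29.3 TPM), GCLC (25.7 TPM), SLC7A11 (21.2 TPM) and NFE2L2 (20.7 TPM) each overlapped the next, and NQO1 (8.09 TPM) was the lowest tested gene. In CS19 the order was TXNRD1 (114.95 ± 11.1 TPM), KEAP1 (63.6 TPM), SLC7A11 (43.4 TPM) and GCLM (36.9 TPM), with no overlap between neighbours. HMOX1 (24.5 TPM), NFE2L2 (22.8 TPM) and GCLC (22.3 TPM) overlapped, and NQO1 (6.41 TPM) was again last.

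Genes with a profile over the 9 libraries most like that of the 2 members with the largest differences were sought among all 19631 genes tested, by the root mean square difference of centred log2 CPM. For TXNRD1 the nearest were ATP10D (0.0401), ADAM9 (0.0726) and VIM (0.0728). For NQO1 they were TFF2 (0.224), ACOT4 (0.226) and ENC1 (0.238). TFF2 and ACOT4 had 0 counts in all 6 libraries labelled SNAI1-KO, while ENC1 had a mean of 312 CPM in WT and 8.74 CPM in the clones. Such profiles were common: 1562 genes lay within 0.5 of TXNRD1 and 176 within 0.5 of NQO1.

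The wider pathway was described by 9 gene lists, in which the members are included, and its counts for the libraries labelled SNAI1-KO are to be read against the 31.1% of all genes that were higher and the 32.6% that were lower. Without WT-2 no such count moved by more than 2 genes. Among the regulators of NRF2, 5 of 15 tested genes were higher and 9 lower in the libraries labelled SNAI1-KO (median log2 fold change -1.14, against 0.00 for all genes). All 3 small MAF partners of NRF2 were lower. MAFF had a log2 fold change of -4.57 in CS16 and -4.42 in CS19 (adjusted p = 1.1e-05 and 6.8e-06), going from 28.4 to 33.5 CPM in WT to 0.956 to 1.61 CPM in the clones. MAFG fell by 1.98 and 1.66, and MAFK by 1.85 and 1.87. MAFK was 60.1 CPM in WT-2 and 19.97 and 23.8 CPM in the other WT libraries, and without WT-2 its log2 fold changes were -1.21 and -1.23 (adjusted p = 5.7e-06 and 9.3e-08, edgeR). NFE2L3, a relative of NRF2, fell by 2.03 and 1.96. The list also held genes of NRF2 degradation that went opposite to KEAP1. CUL3, the ligase scaffold used by KEAP1, rose by 0.82 and 0.65, and BTRC, which targets NRF2 independently of KEAP1, rose by 0.66 and 0.59. BACH2, a repressor that also pairs with small MAF proteins, rose by 1.71 and 1.61.

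In glutathione synthesis and recycling, 6 of 23 tested genes were higher and 9 lower (median -0.23). Besides GCLC, the genes that rose were led by GGT7, of the gamma-glutamyl transferase family, by 2.08 in CS16 and 2.28 in CS19, CHAC2, which degrades glutathione, by 1.46 and 1.37, and GLRX5, a mitochondrial glutaredoxin, by 1.47 and 1.17. GGT5, which cleaves extracellular glutathione conjugates, was 13.4 to 52.6 CPM in WT and at or under 3 counts in every clone library, at least 180-fold lower in CS16 and at least 195-fold lower in CS19. WT-2 was its highest library, and without it these bounds were 92.2-fold and 99.5-fold. OPLAH, which recycles 5-oxoproline, was at least 110.8-fold lower in CS16 and at least 119-fold lower in CS19. The peroxidase family member GPX7 was at least 21.97-fold and 23.7-fold lower, and GPX3 fell by 2.17 and 2.62. These bounds set the WT mean against 3 counts in the shallowest clone library, on the normalized scale.

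Among glutathione S-transferases, which join glutathione to electrophiles, 6 of 15 tested genes were higher and 5 lower (median -0.01). GSTA4 rose by 2.22 in CS16 and 2.37 in CS19, GSTM2 by 1.81 and 1.96, MGST2 by 1.21 and 1.16, and GSTP1 by 0.57 and 0.64. GSTM1 (8.50 to 10.9 CPM in WT) and GSTT2B (3.86 to 10.2 CPM in WT) had 0 counts in all 6 clone libraries, at least 67.3-fold and 43.2-fold lower in CS16. GSTM4 fell by 3.52 and 3.37. The GSTM and GSTT2 genes have near-identical copies, so their separate counts are uncertain.

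In the thioredoxin and peroxiredoxin list, 10 of 20 tested genes were higher and 5 lower, with a median log2 fold change of 0.65, while TXNRD1 was lower. The sestrins, stress proteins tied to peroxiredoxin recycling, rose together: SESN1 by 3.26 in CS16 and 2.84 in CS19, SESN2 by 1.76 and 2.21, and SESN3 by 3.05 and 3.39. TXNRD3, a paralog of TXNRD1, rose by 1.09 and 1.36. TXNIP, an inhibitor of thioredoxin, fell by 3.78 and 3.09, from 205 to 377 CPM in WT to 20.7 to 36.2 CPM in the clones. The methionine sulfoxide reductases MSRA and MSRB3 fell by 2.89 and 0.63 in CS16 and by 2.42 and 0.52 in CS19.

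**Figure D4:**
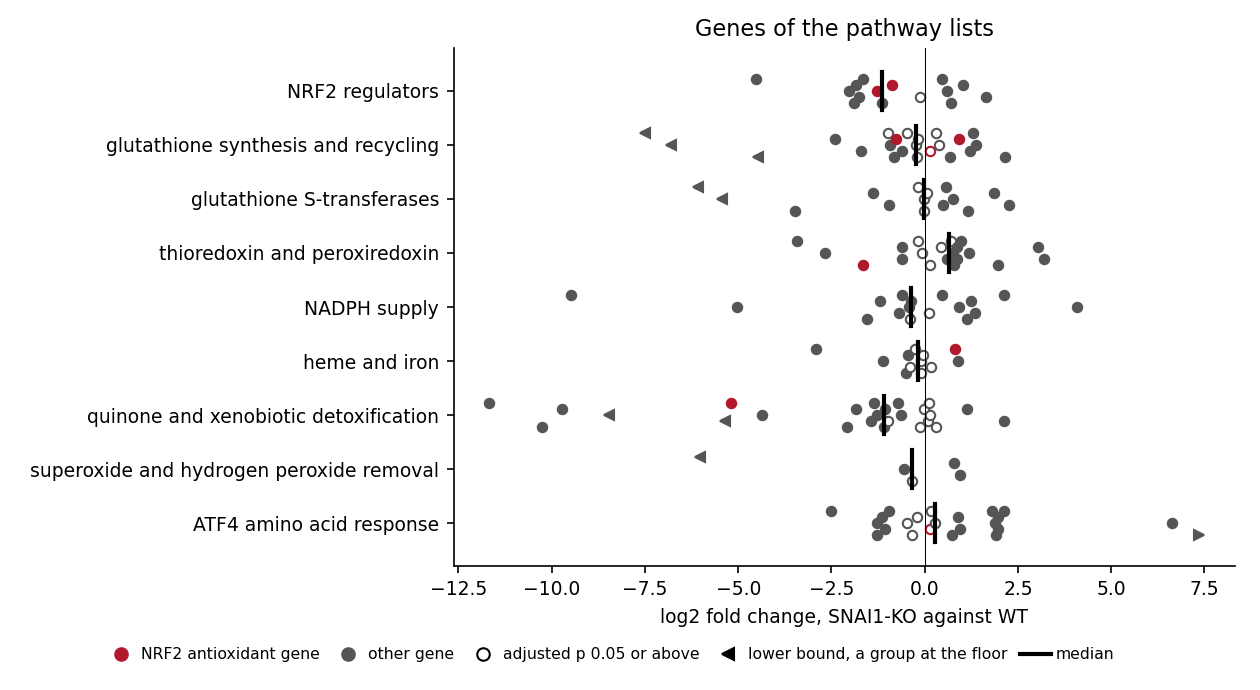
Log2 fold change of the libraries labelled SNAI1-KO against WT for every tested gene of the 9 pathway lists, with members in red, open circles for an adjusted p of 0.05 or above, triangles for bounds of genes with a group at or under 3 counts, and a bar at the list's median. The bar is at -1.14 for NRF2 regulators, at -1.09 for quinone and xenobiotic detoxification and at 0.65 for thioredoxin and peroxiredoxin, and every list holds genes on both sides of 0.

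Quinone and xenobiotic detoxification, the list with NQO1, had 2 of 25 tested genes higher and 16 lower (median -1.09). The aldo-keto reductases AKR1C1 (39.6 to 63.9 CPM in WT) and AKR1C3 (94.3 to 257 CPM in WT), PTGR1, a reductase of unsaturated ketones (49.7 to 80.6 CPM in WT), and the drug exporter ABCC3 (71.1 to 181 CPM in WT) were near 0 in the clones. AKR1C1 was at least 353-fold lower in CS16 and 381-fold lower in CS19, AKR1C3 at least 1329-fold lower in CS19, PTGR1 at least 462-fold and ABCC3 at least 757-fold lower in CS16. In the remaining clone comparisons of these genes a library had 4 counts or more, the highest at 0.196 CPM. AKR1C genes share long stretches of sequence, so counts may be split among them. EPHX2, an epoxide hydrolase, rose by 1.72 and 2.51, and PIR by 1.08 and 1.27.

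For NADPH supply, which feeds thioredoxin and glutathione reduction, 7 of 17 tested genes were higher and 8 lower (median -0.37). NADK, the cytosolic NAD kinase, fell by 1.21 in CS16 and 1.12 in CS19. ME3, mitochondrial malic enzyme, was 74.7 to 84.0 CPM in WT and 0 to 0.197 CPM in the clones, and ALDH1L1, cytosolic formyltetrahydrofolate dehydrogenase, was 2.78 to 3.06 CPM in WT and 0 to 0.273 CPM in the clones. Mitochondrial folate enzymes were higher, ALDH1L2 by 4.26 and 3.95 and MTHFD2 by 2.18 and 2.12, as were IDH1 (1.27 and 1.29) and IDH2 (1.53 and 1.21).

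In the heme and iron list, 2 of 12 tested genes were higher and 4 lower (median -0.17). Next to HMOX1, FECH, which inserts iron into heme, rose by 0.97 in CS16 and 0.87 in CS19. FTL, the ferritin light chain, fell by 2.73 and 3.02, from 1495 to 1780 CPM in WT to 180 to 254 CPM in the clones. For superoxide and hydrogen peroxide removal, where 5 of 6 listed genes were matched in the tables, 2 were higher and 2 lower (median -0.35): PON2 rose by 0.87 and 0.80, and SOD3, the extracellular superoxide dismutase, had 0 counts in all 6 clone libraries and 2.13 to 22.9 CPM in WT.

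The ATF4 amino acid response, which shares SLC7A11 with NRF2, had 11 of 23 tested genes higher and 6 lower (median 0.27). ATF4 itself rose by 2.00 in CS16 and 1.81 in CS19. PHGDH, the first enzyme of serine synthesis, rose by 6.54 and 6.76, from 2.88 to 4.58 CPM in WT to 307 to 390 CPM in the clones, and CBS, of cysteine synthesis, was at least 174-fold and 155-fold higher. The transcription factors ATF5, CEBPB and DDIT3 fell, by 2.35, 1.20 and 1.68 in CS16 and by 2.63, 1.02 and 0.90 in CS19, and SLC7A5, an exchanger of large neutral amino acids, by 1.17 and 1.31. SLC7A5 was 490 CPM in WT-2 and 173 and 190 CPM in the other WT libraries, and without WT-2 its log2 fold changes were -0.56 and -0.68 (adjusted p = 9.2e-05 and 4.5e-06, edgeR).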

How the data were processed

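Total RNA of 9 libraries was depleted of ribosomal RNA and prepared with a stranded kit. After trimming (Trimmomatic 0.36) and alignment to GRCh38 (STAR 2.7.2b), the authors deposited raw counts per gene, whole numbers made by featureCounts 2.0.0 on GENCODE release 38 at a mapping quality of at least 30. No strand option was stated, so reads of overlapping genes on opposite strands cannot be told apart. Groups came from the labels.

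Counts were filtered with filterByExpr, normalized by TMM and tested with the edgeR 4.0.16 quasi-likelihood test (R 4.3.3, limma 3.58.1), with Benjamini-Hochberg adjustment over all genes tested. Comparisons were the 6 SNAI1-KO libraries against 3 WT, each clone against WT, and CS16 against CS19. Intervals are at 95%. A call needed an adjusted p below 0.05 and a log2 fold change of at least 2, the study's cut-offs, and passing needed the p alone. TPM used the exon lengths in the files, and profiles used a prior count of 2. The steps were tested on simulated data. DESeq2 1.42.0, other normalizations and filters, a replicate block, a shared fit and leaving out each library were tried. Counts carry no molecular identifiers, so floors cover counting error only.

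The members and lists were chosen with earlier results of these data known. Named genes of a list passed in both clones in the same direction, up to 4 a direction by the smaller fold change. SOD2 was not analysed here, and some genes of the lists are not reported here. Tables and figures used Python 3.11.15, pandas 2.3.3, numpy 2.4.6 and matplotlib 3.10.9.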

Additional observations from a re-analysis of the deposited data

Results flagged for a closer look

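Each of 62 named genes was checked for a difference between CS16 and CS19, tested directly with the edgeR quasi-likelihood test, and for a single library far from the others. The test of CS16 against CS19 passed for 14 of the 62 genes, against 4814 of all 17538 genes tested. Some of the 62, such as GSTM1, had 0 counts in both clones and could not be tested. Of the members SLC7A11 alone passed, with a log2 difference (CS16 minus CS19) of -1.08 (adjusted p = 3.8e-07). Among the other genes, 6 were higher in CS16: GPX3 by 0.45, SESN1 by 0.42, IDH2 by 0.33, ALDH1L2 by 0.32, GLRX5 by 0.30 and FTL by 0.30 on the log2 scale. The remaining 7 had negative differences, EPHX2 of -0.79, DDIT3 of -0.78, TXNIP of -0.69, SESN2 of -0.45, SESN3 of -0.33, TXNRD3 of -0.27 and PHGDH of -0.22. All 14 genes except SLC7A11 had passed against WT in the same direction in both clones. That was the rule by which list genes were named, so their agreement in direction is not a result. Between the clones, genes so chosen could differ in size only.

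In 2 genes a single library lay far from the other 5 of the 6 libraries labelled SNAI1-KO. The rule used flags about 1 of 20 groups by chance when values are normally distributed. That rate does not hold for counts near the floor, where 1 stray count can set off the rule. GGT5 was at 0.0491 CPM in CS16-1 and at 0 counts in the others, and ALDH1L1 was at 0.273 CPM in CS19-1. Both genes were at or near the floor of 3 counts in these libraries.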

How the results depend on the processing

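The count of members past the cut-off stayed at 1 in each comparison with WT and at 0 between the clones under DESeq2, RLE and upper-quartile normalization, other filters, leaving out the 100 most abundant genes, the replicate block, the shared fit and each left-out library (range 1 to 1, and 0 to 0). Without the fold cut-off it was 7 for SNAI1-KO, 6 for CS16, 6 for CS19 and 1 for CS16 against CS19. Over all genes, 12506 of 19631, 10342 of 18611, 10014 of 18935 and 4814 of 17538 passed in these comparisons. With a log2 fold change of at least 1 the count of members was 3, 4, 3 and 1. The share of all genes at that looser cut-off was not computed, so these counts cannot be called high or low. Of the members' fold changes under these alternatives, 447 kept their direction and side of the threshold, 9 lost the call, 8 gained it and 8 changed sign. SLC7A11 in SNAI1-KO against WT was 0.13, and -0.18 (without WT-2) to 0.34 (without WT-3) with a library left out. KEAP1 between the clones, -0.0042 with all libraries, was 0.0074 under DESeq2 and RLE, 0.0032 without the 100 most abundant genes, 0.0022 in the shared fit, and -0.081 to 0.053 with a library left out. The same replicate number did not pair the libraries (correlations of deviations -0.21 to 0.19), and the replicate block changed no member's call. Single left-out libraries also brought NQO1 (0.50, adjusted p = 0.038, without CS19-3), GCLC (0.23, 0.043, without CS19-2) and GCLM (-0.24, 0.045, without CS16-2) past the test between the clones, by edgeR. The cause was not tested. With a prior count of 0.5 in place of 2, the 3 genes nearest TXNRD1 were the same, while only ENC1 of the 3 nearest NQO1 remained. Of 56 named list genes, 4 moved by over 1.5 times in fold without WT-2 (MAFK, GGT5, SLC7A5 and SOD3) and 0 of those given a fitted fold change lost the edgeR call. The bound of SOD3 against WT went from 65.4-fold to 20.3-fold in CS16. Bounds without WT-2 were added after seeing the data. SRXN1 was not tested, for its few counts.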
